A study of Mus musculus with 27 samples.

Results

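The cytosolic ribosome is built from ribosomal RNA and ribosomal proteins, which are named Rpl or Rplp for the large subunit and Rps or Rpsa for the small one. The genes were chosen by symbol: Rpl or Rps with a number and an optional letter or paralog suffix, together with Rpsa and Rplp0 to Rplp2, leaving out the Rps6k kinases and pseudogenes. The array carried 63 of these genes among 19057 genes with a single symbol, 38 of the large and 25 of the small subunit, on 93 probes. Each gene was represented by the probe detected on most arrays, and 58 genes (34 large, 24 small) had a probe that passed the detection filter. All values below are normalized log2 signals, and a log2 fold change of 1 is a doubling.

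Every sample was the left lung lobe of male fetuses of the strain C57BL/6 X BALBc at day 18 of gestation, with RNA pooled over an unstated number of fetuses. In the EG in vitro group, blastocysts obtained in vitro had been transferred to pseudo-pregnant females. In the EG in vivo group, the transferred blastocysts had developed in vivo, and control fetuses developed in naturally ovulating females without transfer. Each group had 3 pools, given as biological replicates, with 3 arrays a pool, 27 arrays in all. Both EG groups share the transfer, the recipient female and the control samples they are compared with, and the labels name no litters behind the pools, so p-values measure only the spread between these pools.

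Ribosomes are assembled in the nucleolus, where ribosomal RNA is made, biogenesis factors process it and chaperones bring in the ribosomal proteins from the cytoplasm. Their mRNAs typically begin with a C followed by a run of pyrimidines, the terminal oligopyrimidine or TOP motif, through which mTOR signalling controls their translation. Growing and dividing cells, as in the fetal lung, need these proteins in large amounts. Several have paralogs with tissue-restricted use, such as Rpl3l in striated muscle.

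A promoter window was at hand for 52 of the 63 genes from RefSeq (GRCm38.p6), and a few windows are shown with their longest pyrimidine run. The 50 bases run from 25 before to 25 from the annotated start, 5′ to 3′ on the gene's own strand, and capitals mark the longest run of C and T. The first 5 are genes that passed the test below against control, and the last 3 are genes whose brightest probe did not. With the annotated start as base 1, the marked runs began at -15, -14, 3, 12, -24, -4, -7 and -2, in the order shown. A marked run is thus not necessarily the TOP motif.
Rps15a (chr7:118116123-118116172, minus strand): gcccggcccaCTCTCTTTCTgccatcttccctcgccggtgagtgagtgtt
Rpl7a (chr2:26910782-26910831, plus strand): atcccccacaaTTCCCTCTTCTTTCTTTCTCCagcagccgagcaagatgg
Rpl13a (chr7:45128721-45128770, minus strand): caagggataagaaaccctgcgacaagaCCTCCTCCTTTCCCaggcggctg
Rplp0 (chr5:115559442-115559491, plus strand): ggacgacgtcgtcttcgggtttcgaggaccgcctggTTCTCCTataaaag
Rpl7l1 (chr17:46782632-46782681, minus strand): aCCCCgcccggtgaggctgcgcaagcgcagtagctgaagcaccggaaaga
Rpl27a (chr7:109519170-109519219, plus strand): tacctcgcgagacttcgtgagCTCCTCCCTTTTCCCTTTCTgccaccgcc
Rpl35 (chr2:39005107-39005156, minus strand): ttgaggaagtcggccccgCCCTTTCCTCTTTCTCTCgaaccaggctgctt
Rpl38 (chr11:114668555-114668604, plus strand): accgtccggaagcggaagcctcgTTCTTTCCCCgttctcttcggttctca

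A run of at least 8 pyrimidines lay in this window in 23 of the 52 genes (44.2%), against 18.9% of 17492 protein-coding genes, and on the opposite strand in 5.77% and 20.3%. The run lengths differed widely: 21 bases at Rpl7a, 20 at Rpl27a and 4 at Rpl7l1. It was found in 5 of the 10 genes that rose in EG in vitro lungs and in 17 of the 38 tested genes with a window that did not. Within 300 bases around the start, the motif CGGAAG (either strand), the core of ETS-type sites, was present in 36 of the 52 (69.2%), against 21.5% of protein-coding genes. CTTTCC (either strand) was present in 25 of the 52 (48.1%) against 25.7%. CACGTG, the E-box bound by Myc, was present in 5 (9.62%) against 7.9%. These are matches of letters in a window only.

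The ribosomal protein genes had some of the brightest probes on the array. The mean normalized signal exceeded 14 for 26 of the 58 tested genes and for 155 of all tested probes, and the highest value on any array was 15.11. Of the 58, 55 were detected on all 27 arrays, and the others were Rpl14 (21), Rps20 (22) and Rpsa (18). Brightness differs between probes for reasons other than the amount of RNA, so the order of the genes by signal is not an order of expression. The median over the 58 genes was 13.74, 13.86 and 13.87 in the EG in vitro pools and 13.83, 13.86 and 13.83 in the EG in vivo pools, against 13.59, 13.62 and 13.59 in control pools. All EG pools lay above all control pools in this median.

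Most ribosomal protein genes did not pass the test in EG in vitro lungs, and those that did were all higher. Of 58 genes, 10 were higher and 0 lower than in control lungs by limma (adjusted p under 0.05), or 17.2%, where 20.6% of all 22958 tested probes were higher and 19.9% lower. The share of higher genes was a little below that of the array. At an unadjusted p under 0.05 the count was again 10 higher and 0 lower (17.2%), where 25% of all probes were higher and 23.4% lower, 48.4% together. Their median log2 fold change was 0.14, with a range of -0.23 to 1.35, and that of all tested probes was 0.07. The fold changes spread less than those of the array, with an SD of 0.33 against 0.93, and 40 of the 58 lay within 0.25 of no change. Bright probes spread less on the whole array too. All probes with a mean over 14 had an SD of 0.40, and the 26 genes in that range had 0.13. By position alone, 17 of the 58 had all 3 EG in vitro pools above all 3 control pools, against 27.5% of all probes, and 6 had them below, against 25.5%. By subunit, 7 of 34 large and 3 of 24 small subunit genes rose, and the difference was not tested. With the replicate number as a block, 13 of the 58 were higher, against 29.8% of all probes, the additions being Rpl22l1, Rpl30 and Rps20.

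The EG in vivo lungs gave 9 higher and 0 lower genes (15.5%), where 20.3% of all probes were higher and 18.9% lower by limma at the same threshold. At an unadjusted p under 0.05 there were 12 higher and 0 lower (20.7%), where 24.8% of all probes were higher and 22.8% lower, 47.6% together. The median was 0.16, with a range of -0.22 to 1.44, and that of all tested probes was 0.04. Here 18 of the 58 had all 3 pools above the 3 control pools, against 25.8% of all probes, and 4 had them below, against 22.8%. With the replicate number as a block the count was 14 (24.1%), against 28.9% of all probes. The additions were Rpl22, Rpl30, Rps10, Rps2 and Rps20, all past the threshold at an adjusted p of 0.0054 to 0.0453. All 9 genes were also among the 10 of the EG in vitro lungs, 90% of that list, and Rps2 was the exception, but both comparisons share the control pools.

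**Figure D1:**
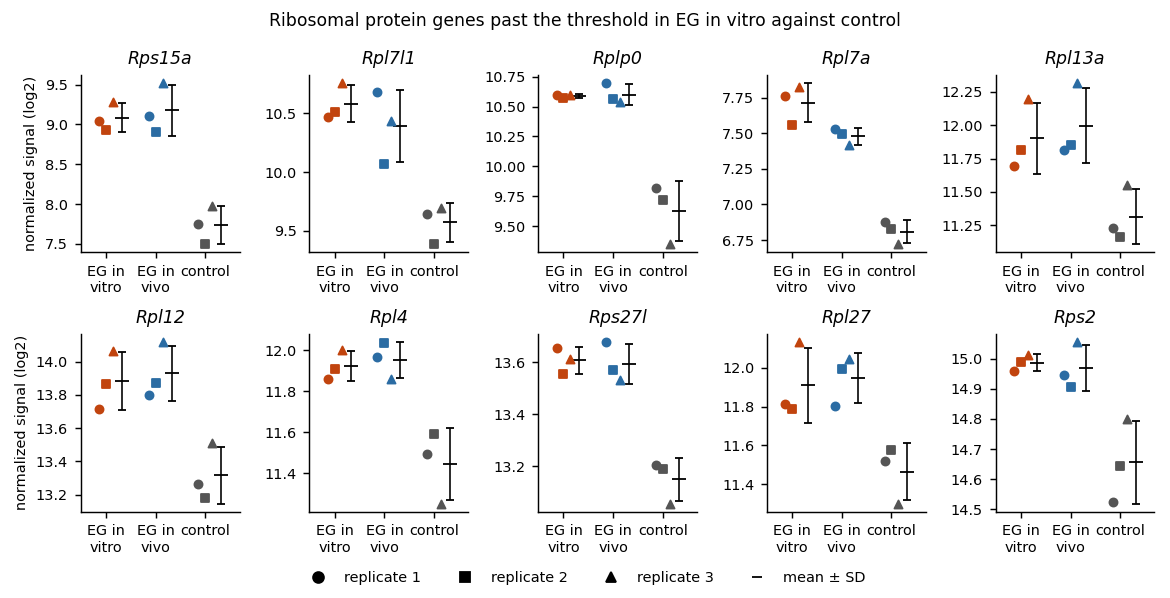
Normalized log2 signal in each pool (vertical axis, its range set for each gene) for the 10 genes that rose in EG in vitro lungs, with EG in vitro, EG in vivo and control pools from left to right, symbols for the replicate number, and the mean ± SD of 3 pools beside the points. In each gene the EG in vitro pools lie above the control pools, from Rps15a with a log2 fold change of 1.35 to Rps2 with 0.33.

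Rps15a, a protein of the small subunit, rose most. It had 9.05, 8.93 and 9.28 in EG in vitro and 9.10, 8.90 and 9.52 in EG in vivo pools, against 7.74, 7.49 and 7.97 in control pools. No EG pool came near the control range. The log2 fold change was 1.35 ± 0.20 in EG in vitro (SE, adjusted p = 0.000835) and 1.44 ± 0.20 in EG in vivo (adjusted p = 0.000643). The other small subunit genes past the threshold were Rps27l and, in EG in vitro, Rps2.

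Among large subunit genes, Rpl7l1, the paralog of Rpl7, had the highest log2 fold change in EG in vitro lungs and Rplp0 in EG in vivo lungs. The Rpl7l1 pools had 10.47, 10.52 and 10.76 in EG in vitro and 10.68, 10.07 and 10.43 in EG in vivo, against 9.64, 9.38 and 9.69 in control. Both EG groups lay above the control pools and overlapped each other, and the log2 fold change was 1.01 ± 0.18 in EG in vitro (adjusted p = 0.0023) and 0.82 ± 0.18 in EG in vivo (adjusted p = 0.00689). Rplp0, which anchors the stalk of the ribosome and is often used as a reference gene in quantitative PCR, had 10.59, 10.57 and 10.60 in EG in vitro and 10.70, 10.56 and 10.54 in EG in vivo pools, against 9.82, 9.72 and 9.35 in control pools. It was 0.96 ± 0.14 higher in EG in vitro (adjusted p = 0.000835) and 0.97 ± 0.14 higher in EG in vivo (adjusted p = 0.000837). Rpl7a, a large subunit protein, had 7.76, 7.56 and 7.83 in EG in vitro and 7.53, 7.49 and 7.41 in EG in vivo pools, against 6.88, 6.83 and 6.72 in control pools. Its log2 fold change was 0.91 ± 0.12 in EG in vitro (adjusted p = 0.000379) and 0.67 ± 0.12 in EG in vivo (adjusted p = 0.00215).

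The other large subunit genes past the threshold were Rpl12, Rpl13a, Rpl4 and Rpl27. Rpl12, a protein at the base of the stalk, had 13.72, 13.87 and 14.06 in EG in vitro and 13.80, 13.87 and 14.12 in EG in vivo pools, against 13.26, 13.18 and 13.51 in control pools. Rpl13a, whose human form is also known for translational control in inflammation, had 11.69, 11.81 and 12.20 in EG in vitro and 11.81, 11.85 and 12.32 in EG in vivo pools, against 11.23, 11.17 and 11.55 in control pools. In both genes replicate 3 was the highest of each group. Rpl4, which lines the exit tunnel, had 11.86, 11.91 and 12.003 in EG in vitro and 11.97, 12.03 and 11.86 in EG in vivo pools, against 11.50, 11.59 and 11.25 in control pools. Rpl27 had 11.81, 11.79 and 12.13 in EG in vitro and 11.80, 11.996 and 12.05 in EG in vivo pools, against 11.52, 11.58 and 11.30 in control pools. In the limma fit these gave log2 fold changes of 0.44 to 0.59 in EG in vitro and 0.48 to 0.68 in EG in vivo lungs, with adjusted p-values of 0.0155 to 0.0432 in the EG in vitro and 0.0121 to 0.0272 in the EG in vivo comparison. In all 4 genes the EG pools lay above the control pools.

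The paralogs and the mRNA entry channel protein complete the list. Rps27l, a paralog of Rps27 and a known target of p53, had 13.66, 13.55 and 13.61 in EG in vitro and 13.68, 13.57 and 13.53 in EG in vivo pools, against 13.20, 13.19 and 13.06 in control pools. Its log2 fold change was 0.46 ± 0.10 in EG in vitro (adjusted p = 0.00821) and 0.44 ± 0.10 in EG in vivo (adjusted p = 0.01). Rps2 had 14.96, 14.99 and 15.01 in EG in vitro and 14.95, 14.91 and 15.06 in EG in vivo pools, against 14.52, 14.64 and 14.80 in control pools. The EG pools were all above the control pools. It was 0.33 ± 0.11 higher in EG in vitro (adjusted p = 0.0443) and 0.31 ± 0.11 in EG in vivo, where it missed the threshold (adjusted p = 0.0549) and passed it with the replicate block (adjusted p = 0.0275).

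Of the 10, Rps15a, Rpl7a and Rps27l were called in all 20 alternatives in both comparisons. These genes have only 1 probe each, so the alternatives that change the probe of a gene could not alter their calls. Each of the other 7 lost its EG in vitro call in at least 1 alternative, and Rpl12 kept its EG in vivo call in all of them. Without EG in vitro replicate 3, the adjusted p was 0.134 for Rpl13a, 0.0588 for Rpl12, 0.117 for Rpl27, 0.0534 for Rpl4 and 0.108 for Rps2. Without control replicate 1 it was 0.119 for Rpl13a, 0.0552 for Rpl12, 0.0718 for Rpl27 and 0.148 for Rps2, and without control replicate 2 it was 0.122 for Rpl13a, 0.0571 for Rpl12 and 0.1 for Rps2. Rpl27 also lost its call without control replicate 3 (adjusted p = 0.092), EG in vitro replicate 1 (0.0603) or 2 (0.0551) or EG in vivo replicate 2 (0.0557). Rpl13a did so without EG in vitro replicate 2 (adjusted p = 0.0807) or EG in vivo replicate 1 (0.0545) or 2 (0.058), and Rps2 without EG in vitro replicate 1 (0.0955) or 2 (0.113) or EG in vivo replicate 1 (0.0674) or 2 (0.0653). In EG in vivo lungs the call of Rpl13a was lost without EG in vivo replicate 3 or control replicate 1 or 2 (adjusted p = 0.0631 to 0.0766), and that of Rpl27 without EG in vivo replicate 2 or 3 or control replicate 1 or 3 (adjusted p = 0.0573 to 0.0801).

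The choice of probe ended further calls. On the dimmest probe of the gene, the adjusted p in EG in vitro was 0.0969 for Rpl7l1 and 0.121 for Rps2. It was 0.53 for Rplp0 and 0.617 for Rpl4. For EG in vivo it was 0.0847 for Rpl7l1, 0.655 for Rplp0 and 0.771 for Rpl4. The dimmest Rplp0 and Rpl4 probes had a low replicate 3 in every group, as described below. Their EG in vitro log2 fold changes were 1.03 ± 1.16 and 0.70 ± 0.98, against 0.96 and 0.48 on the gene's other probe. Those for EG in vivo were 0.76 and 0.44, against 0.97 and 0.51. With the replicate block, the dimmest Rplp0 probe had an adjusted p of 0.0115 for EG in vitro and 0.0388 for EG in vivo. That of Rpl4 had 0.05 and 0.186. With the mean of all kept probes of a gene, Rplp0 had an adjusted p of 0.225 for EG in vitro and 0.292 for EG in vivo lungs, Rpl4 had 0.395 and 0.501, and Rps2 had 0.0583 in EG in vitro. With median scaling, Rpl27 (0.0724) and Rpl4 (0.0913) missed the threshold in EG in vitro, and Rpl4 (0.0536) in EG in vivo. In EG in vitro, Rpl13a did so with no filter (adjusted p = 0.0677) and Rpl27 with replicates 1 and 2 only (adjusted p = 0.0972).

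Among genes that passed with the replicate block alone, Rpl30, a large subunit protein, had a log2 fold change of 0.53 ± 0.29 in EG in vitro (adjusted p = 0.185, and 0.0152 with the block) and 0.45 ± 0.29 in EG in vivo (adjusted p = 0.262, and 0.03 with the block). Rps10, of the small subunit, had 0.28 ± 0.12 in EG in vivo (adjusted p = 0.0968, and 0.0453 with the block).

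The log2 fold changes differed with the brightness of the probe. Among the 26 genes with a probe mean over 14, only Rps2 rose in EG in vitro lungs and the median log2 fold change was -0.02, while 14.8% of all 155 probes in that range were higher. For 7 genes between 9 and 12, 5 rose and the median was 0.59, against 24.4% of all probes in that range. For 17 genes between 12 and 14, 2 rose, against 32% of probes, and for 8 genes at 9 or less, 2 rose, against 18.3%. In EG in vivo lungs the counts from the dim to the bright range were 2, 5, 2 and 0, where 18.1%, 24.1%, 30.5% and 13.5% of all probes were higher.

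**Figure D2:**
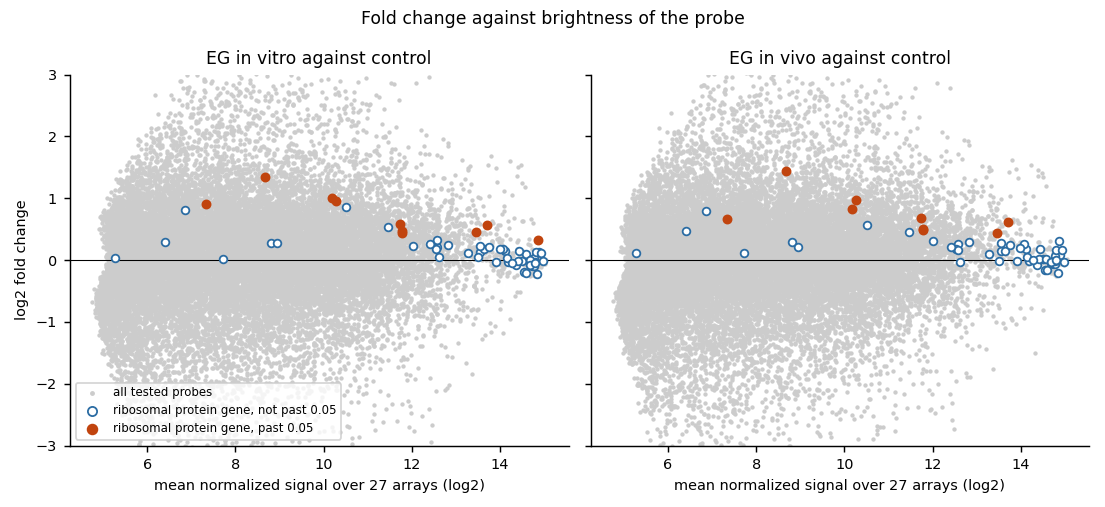
Log2 fold change (vertical axis, cut at 3 either way) against the mean normalized log2 signal of the probe over 27 arrays (horizontal axis), with EG in vitro against control on the left and EG in vivo against control on the right. Filled points are ribosomal protein genes past an adjusted p of 0.05, open points those not past it, and grey points all tested probes. The 26 genes beyond a mean of 14 lie between -0.23 and 0.33 on the left.

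Probes of one gene did not always agree in this respect. Of the 17 genes with at least 2 probes detected on all arrays, the dimmest probe had the larger log2 fold change in 12 of them in EG in vitro lungs and 10 of them in EG in vivo lungs. The median was 0.44 at the dimmest probe and 0.11 at the brightest in EG in vitro, and 0.43 and 0.15 in EG in vivo. The dimmest probe passed the threshold in 5 of the 17 genes and the brightest in 4 in EG in vitro, and in 5 and 3 in EG in vivo. The dimmest probes of Rpl23, Rpl27a, Rpl4 and Rplp0 had a low replicate 3 in every group, as described below. In EG in vitro all of these had the larger log2 fold change, with SEs of 0.75 to 1.16. The 26 further kept probes of 19 genes gave 8 higher and 0 lower in each comparison (30.8%, where 20.6% of all tested probes were higher and 19.9% lower in the EG in vitro comparison, and 20.3% and 18.9% in the EG in vivo one), on Rpl27a, Rpl28, Rpl31, Rpl38, Rps13 and Rps24. Counting a gene by any of its probes, 16 of 58 genes were higher in EG in vitro lungs and 15 in EG in vivo lungs, a count that grows with the number of probes.

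The widest gap was at Rpl38, a large subunit protein needed in the mouse for the translation of Hox mRNAs. Its bright probe had 14.84, 14.77 and 14.69 in EG in vitro and 14.78, 14.82 and 14.75 in EG in vivo pools, against 14.85, 14.79 and 14.76 in control pools, and the groups overlapped. Its dim probe had 8.39, 8.42 and 8.58 in EG in vitro and 8.39, 8.44 and 8.71 in EG in vivo pools, against 6.99, 7.30 and 6.93 in control pools, a log2 fold change of 1.39 ± 0.15 in EG in vitro (adjusted p = 0.000134). Rps13, of the small subunit, had log2 fold changes of 0.20 on the bright probe and 1.27 on the dim probe (adjusted p = 5.84e-05). Rps24 had -0.05 on the bright probe and 1.27 and 0.84 on the dimmer ones. The part of the probe's brightness in these gaps was not tested. Many ribosomal protein genes have near-identical pseudogene copies, so which copies a probe reads is uncertain.

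**Figure D3:**
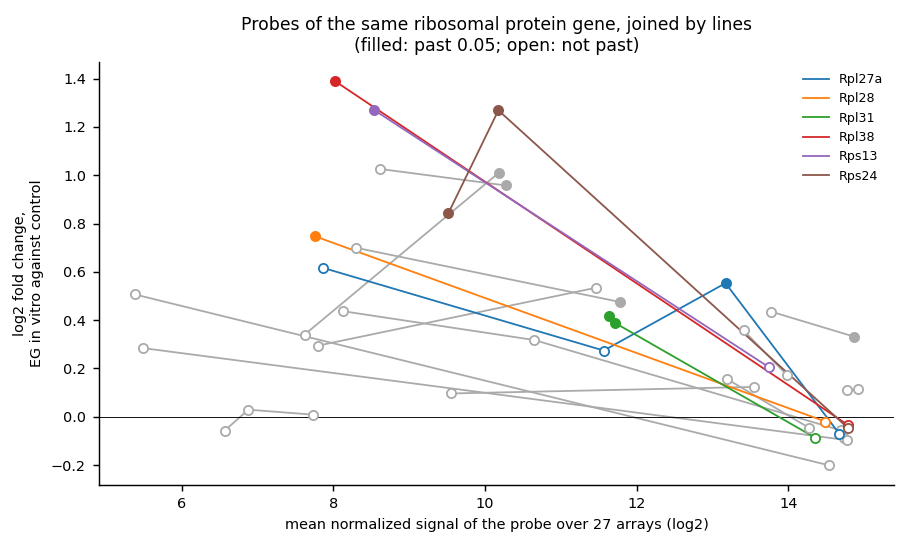
Log2 fold change in EG in vitro against control (vertical axis) against the mean normalized log2 signal of the probe (horizontal axis) for every kept probe of the 19 genes with more than one, lines joining probes of one gene. Filled points are past an adjusted p of 0.05 and coloured lines mark the 6 genes with a further probe past it; the Rpl38 probes lie at 1.39 and -0.03.

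Replicate 3 stood apart on some of these probes. On 8 of the 84 kept probes (9.52%, against 8.38% of all tested probes), the signal in replicate 3 was more than 0.5 below the mean of replicates 1 and 2 in every group. These were the probes of Rpl14, Rpl22l1, Rps20 and Rps3a1 and a second probe each of Rpl23, Rpl27a, Rpl4 and Rplp0, whose other probes did not do so. The arrays of replicate 3 were also dimmer before normalization in each group, with median signals of 113 to 120 in EG in vitro and 117 to 127 in EG in vivo, against 117 to 126 in control, and 142 to 170 on the other arrays. The part this plays was not tested. For Rpl22l1, the paralog that is raised when Rpl22 is lost in the mouse, the pools had 11.90, 11.57 and 9.23 in EG in vitro and 11.16, 11.69 and 8.95 in EG in vivo, against 10.75, 11.58 and 7.79 in control. All groups overlapped, and its log2 fold change was 0.86 ± 1.14 in EG in vitro (adjusted p = 0.596), with 0.0257 under the replicate block. Without control replicate 3 the log2 fold change was -0.26 for EG in vitro and -0.56 for EG in vivo. Rps20, a small subunit protein of the head, had 8.13, 7.83 and 5.41 in EG in vitro and 7.84, 8.06 and 5.44 in EG in vivo pools, against 6.798, 7.41 and 4.76 in control pools. It missed the threshold without the block (adjusted p = 0.571 and 0.584) and passed it with the block (adjusted p = 0.00475 for EG in vitro and 0.0054 for EG in vivo).

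**Figure D4:**
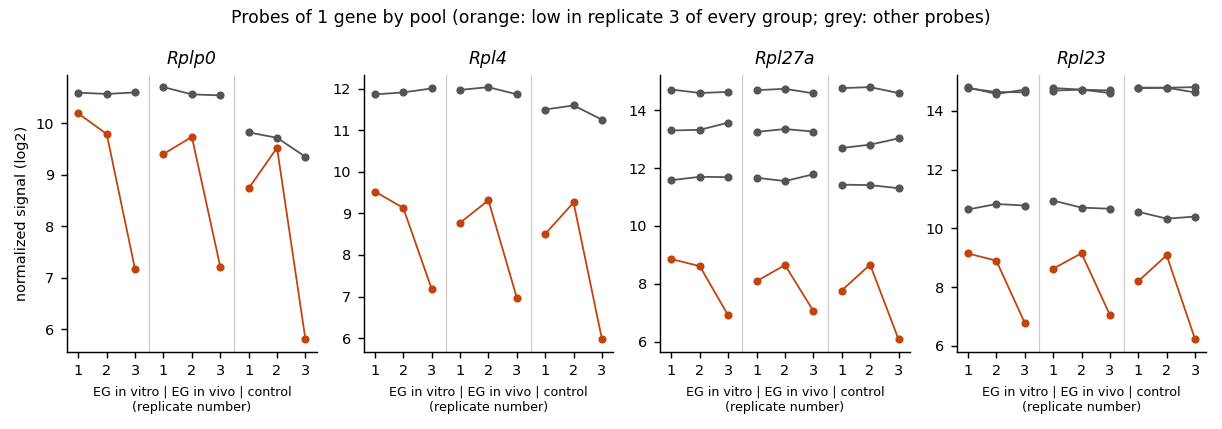
Normalized log2 signal by pool (horizontal axis: replicates 1 to 3 of EG in vitro, EG in vivo and control) of each kept probe of 4 genes. Orange probes are those with replicate 3 more than 0.5 below the others in every group, grey probes are the rest; the grey Rplp0 probe has 10.60 in replicate 3 of EG in vitro and the orange one has a mean replicate 3 difference of -2.84.

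The other paralogs did not pass the test. Rpl22 had a log2 fold change of 0.23 ± 0.11 in EG in vitro (adjusted p = 0.122) and 0.30 ± 0.11 in EG in vivo (adjusted p = 0.0559, and 0.041 with the replicate block). Rpl36a and Rpl36al were both at 0.18 in EG in vitro, Rpl39 was at 0.09 and Rpl3, a protein of the peptidyl transferase centre, at 0.03, none past the threshold. Rps4x, the X-linked small subunit gene, had -0.21 ± 0.11 (adjusted p = 0.174), and its paralog Rps4l had 0.28 ± 0.16 (adjusted p = 0.192). Of the 20 alternatives, Rpl22 was called in 2 for EG in vitro and 7 for EG in vivo. Rps4l was called in 2 and 1, and Rpl36a, Rpl36al, Rpl39, Rpl3 and Rps4x in none. The bright Rpl41, which encodes the smallest of the ribosomal proteins, had the lowest log2 fold change, -0.23 ± 0.12 (adjusted p = 0.162).

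No probe was kept for 5 genes. Rpl17 and Rpl39l were detected on no array, Rpl6 on 2, Rps23 on 1 and Rpl3l on 3. All 3 of the Rpl3l detections were in control arrays. Its pools had 4.64, 4.57 and 4.69 in EG in vitro and 4.56, 4.48 and 4.88 in EG in vivo, against 5.04, 5.05 and 5.17 in control, near the detection limit. With no filter it was the 1 gene lower in each comparison (adjusted p = 0.0191 and 0.0217). Heart muscle markers moved the same way: 7 of 8 kept markers were lower in EG in vitro and 4 of 8 in EG in vivo lungs (8 of 8 with the replicate block). Of all tested probes, 19.9% and 18.9% were lower, and 26% and 25.5% with the block. The log2 of the markers' summed signal, in which the brightest markers weigh most, was 11.84 to 12.495 in EG in vitro pools. It was 11.95 to 12.79 in EG in vivo pools, against 13.33 to 13.71 in control pools. The marker Myh7 was detected on no EG array. The part of muscle tissue in the Rpl3l values was not tested.

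Between EG in vitro and EG in vivo lungs, none of the 58 genes passed the test. The limma fit called 0 of the 22958 probes (0%), and 285 probes (1.24%) and none of these genes had an unadjusted p under 0.05. The median log2 fold change was -0.03, with a range of -0.18 to 0.30, and 57 of the 58 lay within 0.25 of no change. The median SE of a log2 fold change was 0.12.

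Most of the listed ribosome biogenesis factors rose. As with the other lists, these genes were chosen with earlier results of these data known. Of 55 kept ribosome biogenesis factors, 42 were higher and 0 lower in EG in vitro lungs (76.4%, against 20.6% of all tested probes). Their median was 1.01, against 0.07 over all probes. In EG in vivo lungs 41 were higher (74.5%, against 20.3% of all tested probes), with a median of 0.96. Rrp12, known from yeast as a factor of ribosomal subunit export, had a log2 fold change of 2.08 ± 0.19 in EG in vitro (adjusted p = 7.29e-05). Nop56, a core protein of box C/D particles, was 1.85 ± 0.26 higher (adjusted p = 0.000699), and Gar1, of the box H/ACA particles, 1.72 ± 0.11 (adjusted p = 1.44e-05).

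Of 13 chaperones and escort factors of ribosomal proteins, 8 rose and 0 fell in each comparison (61.5%, against 20.6% and 20.3% of all probes), with medians of 0.66 and 0.68. Grwd1, whose yeast counterpart is the chaperone of Rpl3, was 1.92 ± 0.12 higher in EG in vitro lungs (adjusted p = 1.1e-05), Heatr3, which carries Rpl5 into the nucleus in human cells, 0.98 ± 0.13 (adjusted p = 0.000451), and Ltv1, a small subunit assembly factor, 0.97 ± 0.18 (adjusted p = 0.00271). Of 17 genes of the RNA polymerase I machinery, which transcribes ribosomal RNA, 7 rose in each comparison (41.2%), and 13 and 12 did so with the replicate block, against 29.8% and 28.9% of all probes. Polr1b, its second largest subunit, was 2.13 ± 0.13 higher in EG in vitro (adjusted p = 1.07e-05), Polr1a 1.36 ± 0.15 (adjusted p = 0.000151) and Polr1e 1.31 ± 0.18 (adjusted p = 0.000547).

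Of 72 mitochondrial ribosomal protein genes, 43 rose (59.7%) and 1 fell (1.39%) in each comparison, Mrpl14 (a gene chosen after its values were seen), with a median of 0.57 in both. Of all tested probes, 20.6% were higher and 19.9% lower in EG in vitro, and 20.3% and 18.9% in EG in vivo. Mrps22 was 1.29 ± 0.23 higher in EG in vitro (adjusted p = 0.00243), Mrps18b 1.18 ± 0.22 (adjusted p = 0.0028) and Mrpl12 1.14 ± 0.14 (adjusted p = 0.000295). Against this, 10 of the 58 cytosolic genes rose in EG in vitro lungs, with a median of 0.14. Of the 58, 26 had a probe mean over 14 (median -0.02) and 7 had one between 9 and 12 (median 0.59). The lists were not matched for probe brightness, and the difference between them was not tested. Of 21 translation factors and other TOP genes, 9 rose in EG in vitro lungs (42.9%, against 20.6% of all tested probes). In EG in vivo lungs 8 rose (38.1%, against 20.3%), and the medians were 0.27 and 0.26. Hnrnpa1 was 0.98 ± 0.21 higher in EG in vitro (adjusted p = 0.00564), Eif3a 0.72 ± 0.17 (adjusted p = 0.00951) and Eef1d 0.68 ± 0.15 (adjusted p = 0.00593). Eef2, the factor that moves the ribosome along the mRNA, had -0.85 ± 0.47 in EG in vitro (adjusted p = 0.191) and -1.55 ± 0.47 in EG in vivo lungs (adjusted p = 0.0307), and was named after its values were seen.

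**Figure D5:**
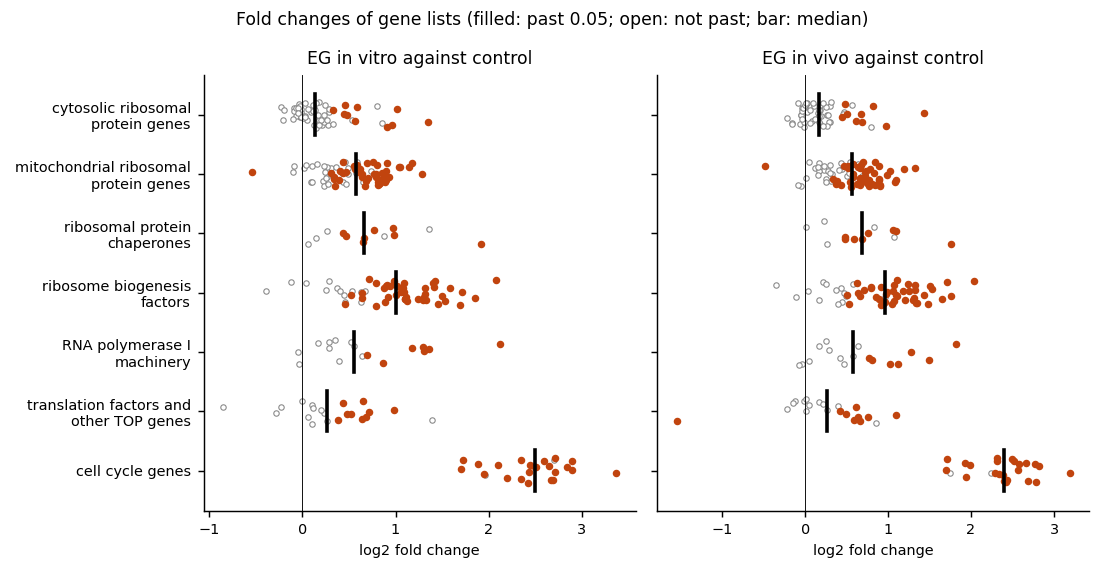
Log2 fold changes (horizontal axis) of the kept genes of 7 lists (rows), EG in vitro against control on the left and EG in vivo against control on the right. Filled points are past an adjusted p of 0.05, open points are not, and bars are medians, from 0.14 for the cytosolic ribosomal protein genes to 2.496 for the cell cycle genes in EG in vitro. The lists were not matched for probe brightness.

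The mTOR pathway signals to TOP mRNAs. In its list, S6 kinases included, 3 of 20 genes rose (15%) and 4 fell (20%) in each comparison, near or below the shares of the array (20.6% higher and 19.9% lower in the EG in vitro comparison, 20.3% and 18.9% in the EG in vivo one). With the replicate block 5 of the 20 rose in each comparison, where 29.8% and 28.9% of all probes did. Those that rose were Rptor, Mlst8 and Myc in both. Deptor, Eef2k and Maf1 fell in both, with Eif4ebp1 in EG in vitro and Eif4ebp2 in EG in vivo. Deptor, an inhibitor of mTOR, fell by 1.99 ± 0.34 on the log2 scale in EG in vitro (adjusted p = 0.00181) and Eef2k, the kinase that inhibits Eef2, by 0.73 ± 0.12 (adjusted p = 0.00183), while Myc rose by 0.83 ± 0.19 (adjusted p = 0.00869). Of 19 targets of p53 and nucleolar stress, to which ribosomal protein shortage leads, 3 (Aen, Ei24 and Gtse1) rose (15.8%) and 6 fell (31.6%) in EG in vitro lungs, with a median of -0.36. Gtse1, a gene of G2 and mitosis, rose by 2.70 ± 0.18 (adjusted p = 1.33e-05), and Cdkn1a, the cell cycle inhibitor, fell by 2.17 ± 0.25 (adjusted p = 0.00021) and Dram1 by 1.40 ± 0.12 (adjusted p = 4.79e-05).

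Among the other lists, most lung epithelium and leukocyte markers were lower in EG than in control lungs and most cell cycle genes were higher. Of all tested probes, 20.6% were higher and 19.9% lower in EG in vitro, and 20.3% and 18.9% in EG in vivo. Of 15 lung epithelium markers, 14 of which were detected on all 9 control arrays, 11 were lower and 0 higher in each comparison. The markers did not all move alike, with log2 fold changes of -8.20 to 1.32 in EG in vitro and -7.05 to 0.85 in EG in vivo. With the replicate block 1 was higher and 12 lower in EG in vitro, where 29.8% and 26% of all probes were. The log2 of their summed signal, called the sum below, was 15.24 to 15.32 in EG in vitro pools. It was 15.38 to 15.54 in EG in vivo pools, against 17.14 to 17.24 in control pools. Of 11 leukocyte markers, 9 were lower in each comparison, with sums of 12.90 to 13.01 and 12.85 to 13.25 in EG pools, against 15.80 to 16.02 in control pools, and Cd3e and Itgam were detected on no EG array. Of 25 cell cycle genes 23 were higher in each comparison, with medians of 2.496 and 2.39. Erythroid markers were split, with the embryonic globins Hbb-y, Hba-x and Hbb-bh1 higher and Alas2, Fech and Tmod1 lower among 13 in each comparison. Their sums ranged from 15.34 to 15.54 in EG in vitro and 15.30 to 15.52 in EG in vivo pools, against 15.34 to 15.57 in control pools, and Epb42 was detected on no array. In whole lung, fewer cells of a type and less RNA per cell cannot be told apart, and the part these markers play in the ribosomal protein values was not tested.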

How the data were processed

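Gene expression was measured on Illumina bead arrays in 27 samples, 9 pools with 3 arrays each. The deposited non-normalized table gives signal intensity and a detection p-value for each of 45281 probes per array, per the file headers; the authors also deposited a processed intensity matrix. The scanner software and any background subtraction are not stated in the labels or headers. Gene symbols came from the platform annotation (34885 probes with 1 symbol, 18 with several, 10378 with none), and all 63 genes matched RefSeq (GRCm38.p6) by gene ID. Every value column belonged to a sample of the series.

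The neqc function of limma 3.58.1 (R 4.3.3) corrected the background from the detection p-values, added an offset of 16, normalized by quantiles and took log2. The offset sets the size of fold changes for dim probes. A probe was kept with a detection p under 0.05 on at least 6 of 9 arrays of a group, which left 22958 probes. Arrays of a pool were averaged, and a limma model over the 3 groups (lmFit, eBayes) with 6 residual degrees of freedom and 2.41 from the prior gave the contrasts with two-sided p-values, adjusted by Benjamini-Hochberg over all kept probes at 0.05. The fit was tested on simulated data. Precision is limited by how many arrays and pools there were. Per array, 19762 to 23449 probes were detected and the median signal ranged from 113 to 170. Correlations between technical arrays were 0.989 to 0.996. The SD between pools of a group had a median of 0.11 over the genes described, and that between technical arrays was 0.07.

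The labels do not say whether the replicate number pairs pools across groups. Same-numbered pools of different groups deviated together, with correlations of 0.503 to 0.827 over 9 pairs. Pools with different numbers had -0.814 to 0.774. The 2 ranges overlap. The deviations are from group means of 3 pools, so a shared effect of a single replicate would also give such an overlap. These correlations thus do not settle the pairing, and the number was also fitted as a block. Other alternatives were the scaling, the background correction, the authors' matrix, the filter, the probe chosen for a gene, single arrays with the pool as a random block, replicates 1 and 2 only, and leaving out each pool. The members and the gene lists were chosen with earlier results of these data known. Genes named were those past the threshold (up to 8 highest and 8 lowest per contrast), paralogs, and up to 3 per list with the largest change in EG in vitro against control; others are marked where named. Promoter motifs were counted in the RefSeq windows of all genes.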

Additional observations from a re-analysis of the deposited data

How the results depend on the processing

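The number of higher ribosomal protein genes in EG in vivo against control, 9, was 14 with no background correction, 14 in the authors' processed matrix and 14 with the replicate block. Lower genes were 0 in each comparison with control, and 1 (Rpl3l) in each with no filter, where 63 genes were tested. The median log2 fold change, 0.14 for EG in vitro and 0.16 for EG in vivo, was 0.20 and 0.24 with median scaling and 0.20 in EG in vitro with the mean of all kept probes. In alternatives added after seeing the data, it was 0.21 and 0.21 for the dimmest probe of each gene, and 0.27 and 0.28 for the 32 genes with a probe mean of 14 or less. Leaving out single pools gave 5 to 10 higher genes in EG in vitro (5 without EG in vitro replicate 3, 6 without control replicate 1), 7 to 9 in EG in vivo and 0 to 0 lower in either. The medians were 0.11 to 0.14 and 0.10 to 0.17, the lowest in EG in vivo being without control replicate 3, and -0.0275 to -0.00352 between the EG groups. With the replicate block 13 genes were higher in EG in vitro and none of the main calls was lost in either comparison. The causes were not tested. The scalings tried moved the median of all probes by under 0.1 on the log2 scale. Quantile and median scaling set the arrays to a common distribution or median, so a shift of most probes would not show there. Signal over background was too low to test Rpl3l, Rpl6, Rpl17, Rpl39l and Rps23 with the filter; whether the signal range limits the calls of the other genes was not tested.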
